A study of Mus musculus with 18 samples.

Results

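Gene expression was compared between cells sorted from the tibialis anterior muscle of syndecan-4 null (Sdc4-/-) mice 12 h after injury and cells sorted the same way from uninjured Sdc4-/- muscle. The members were chosen by title, as the 3 arrays named for Sdc4-/- satellite cells at 12 h and the 3 named for 0 h, which are 6 of the 18 arrays in the series. All 6 came from female C57Bl/6 mice with a homozygous Sdc4 deletion, labelled as 3 to 6 months old (the methods give 3 months for the muscles used here), so every cell of both groups lacked the gene from birth. The 12 h muscles had been injected with barium chloride, which kills muscle fibres, and the 0 h muscles had not. Cells were freed with collagenase and sorted on syndecan-3 immunoreactivity, and RNA from a fixed number of cells was amplified by T7 polymerase in 2 rounds before hybridization. The series also holds Sdc4-/- cells at 48 h and wild type cells at 0, 12 and 48 h. The wild type mice were C57Bl/6xDBA2, so genotype and strain background cannot be told apart in any comparison between the genotypes. Nothing in the sources says that the replicates came from separate animals, and p-values therefore measure only a spread between samples. That spread was pooled over the 17 arrays of the fit, wild type arrays included. A gene whose 3 and 3 Sdc4-/- arrays lie apart can thus remain not called because other groups spread widely.

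Satellite cells are the resident stem cells of skeletal muscle. They lie beneath the basal lamina of the fibre, are marked by the transcription factor Pax7, and after injury leave quiescence, express MyoD and divide. Syndecan-4 is a transmembrane heparan sulfate proteoglycan that presents growth factors to their receptors and takes part in focal adhesion, and syndecan-3 is a related proteoglycan used here to sort the cells. In injured muscle the first hours bring release of cytokines and chemokines, arrival of neutrophils and then monocytes, and a change of state in the macrophages already resident in the tissue. A level below is a GCRMA value on the log2 scale, a change is the 12 h mean minus the 0 h mean on that scale, and a gene was called when the Benjamini-Hochberg adjusted p of limma over all 45101 probe sets was under 0.05. Each probe set has its own response, so levels of different genes do not give their relative abundance. Counts of markers above 5 or under 4 and summed marker levels carry this limit.

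The 6 arrays differed in how much signal they held. Between 7137 and 7864 probe sets lay above 5 on the log2 scale in the 0 h arrays, and between 5076 and 5565 in the 12 h arrays, with 7294 to 7723 at 48 h. The spiked hybridization controls, which are added in a fixed amount, averaged 9.72 to 10.3 at 0 h and 9.71, 10.65 and 12.33 in 12 h replicates 2, 1 and 3. The 3′ probe set of Actb lay at 12.29 to 12.69 at 0 h and 12.44 to 12.93 at 12 h, whereas its 5′ probe set lay at 6.93 to 7.38 and 5.19 to 6.26. The 12 h arrays were thus lower at the 5′ end of this transcript with no overlap, and the part of RNA length in the results below was not tested. The 75th percentile lay at 3.89 to 4.07 in the 0 h arrays and at 3.63 to 3.67 in the 12 h arrays. When arrays were shifted to a common 75th percentile the median over every probe set moved by 0.34, those at the floor included. Under that scaling 18071 probe sets were called higher and 2659 lower.

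The satellite cell label did not match the transcripts that define it. Pax7 lay at 2.41, 2.38 and 2.62 in the 0 h arrays and at 2.43, 2.71 and 2.45 in the 12 h arrays, and Myf5, the myogenic factor expressed in most quiescent satellite cells, lay at 2.80 to 2.82 and 2.91 to 3.08. These values are at the floor of the GCRMA scale, where probe sets without signal lie. In wild type cells at 0 h the same probe sets averaged 4.87 and 4.72. Of 9 satellite cell markers measured, 5 (Pax7, Myf5, Cdh15, Itga7 and Chodl) were under 4 in all 6 Sdc4-/- arrays. In wild type cells at 0 h Chodl lay at 5.05 and 5.84. Cdh15 was also near the floor there (3.16 and 3.22) and Itga7 lay at 4.34 and 3.06, so low values of these are not particular to Sdc4-/- cells. The summed linear level of all 9 markers was 167.5 to 198.5 at 0 h and 245.5 to 343.6 at 12 h. In this sum the members of highest mean level, Sdc3 and Vcam1, weigh most. Sdc3, whose protein was used for the sort, was at 6.06, 5.92 and 6.71 and then at 6.51, 5.69 and 5.76, which overlap (change -0.24 ± 0.40 SE, adjusted p = 0.774). Vcam1, an adhesion molecule of satellite cells and of activated endothelium, lay at 4.11 to 5.73 and at 6.24 to 7.54, apart but not called (adjusted p = 0.0916).

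Most macrophage markers gave signal in these arrays. At 0 h 8 of 9 macrophage and monocyte markers were above 5 in every array, and at 12 h 6 were. Csf1r, the receptor for the macrophage growth factor, lay at 14.18, 14.24 and 14.03 and then at 12.49, 12.01 and 12.26, apart but not called (adjusted p = 0.125). In wild type cells at 0 h Csf1r lay at 10.02 and 12.86 and C1qa at 3.78 and 8.69. The summed linear level of the macrophage markers, in which Csf1r weighs most, was 28710 to 37000 at 0 h and 14130 to 15790 at 12 h. Of the 9 markers, 1 (C1qa) was called lower and 0 higher. Neutrophil markers above 5 in every array numbered 4 of 8 at 0 h and 2 at 12 h (summed level 4042 to 11830 and 4524 to 22270). The granule transcripts Elane and Mpo were at 2.31 to 2.45 at 12 h, and Mpo lay at 2.36, 2.28 and 6.48 at 0 h. Endothelial markers above 5 in every array numbered 3 of 7 at 0 h and 0 at 12 h (summed level 266.5 to 530.4 and 56.05 to 117.3). Pericyte and smooth muscle markers numbered 4 of 7 and 1 (1265 to 7841 and 304.5 to 2120), and fibro-adipogenic progenitor markers 3 of 6 and 1 (306.3 to 1587 and 71.82 to 1146). All 5 lymphoid, both erythroid and both glial markers measured were under 4 in all 6 arrays. The cells are therefore named below by how they were obtained, as syndecan-3-sorted Sdc4-/- cells. In sorted bulk samples, fewer cells of a type and less RNA per cell cannot be told apart.

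**Figure D1:**
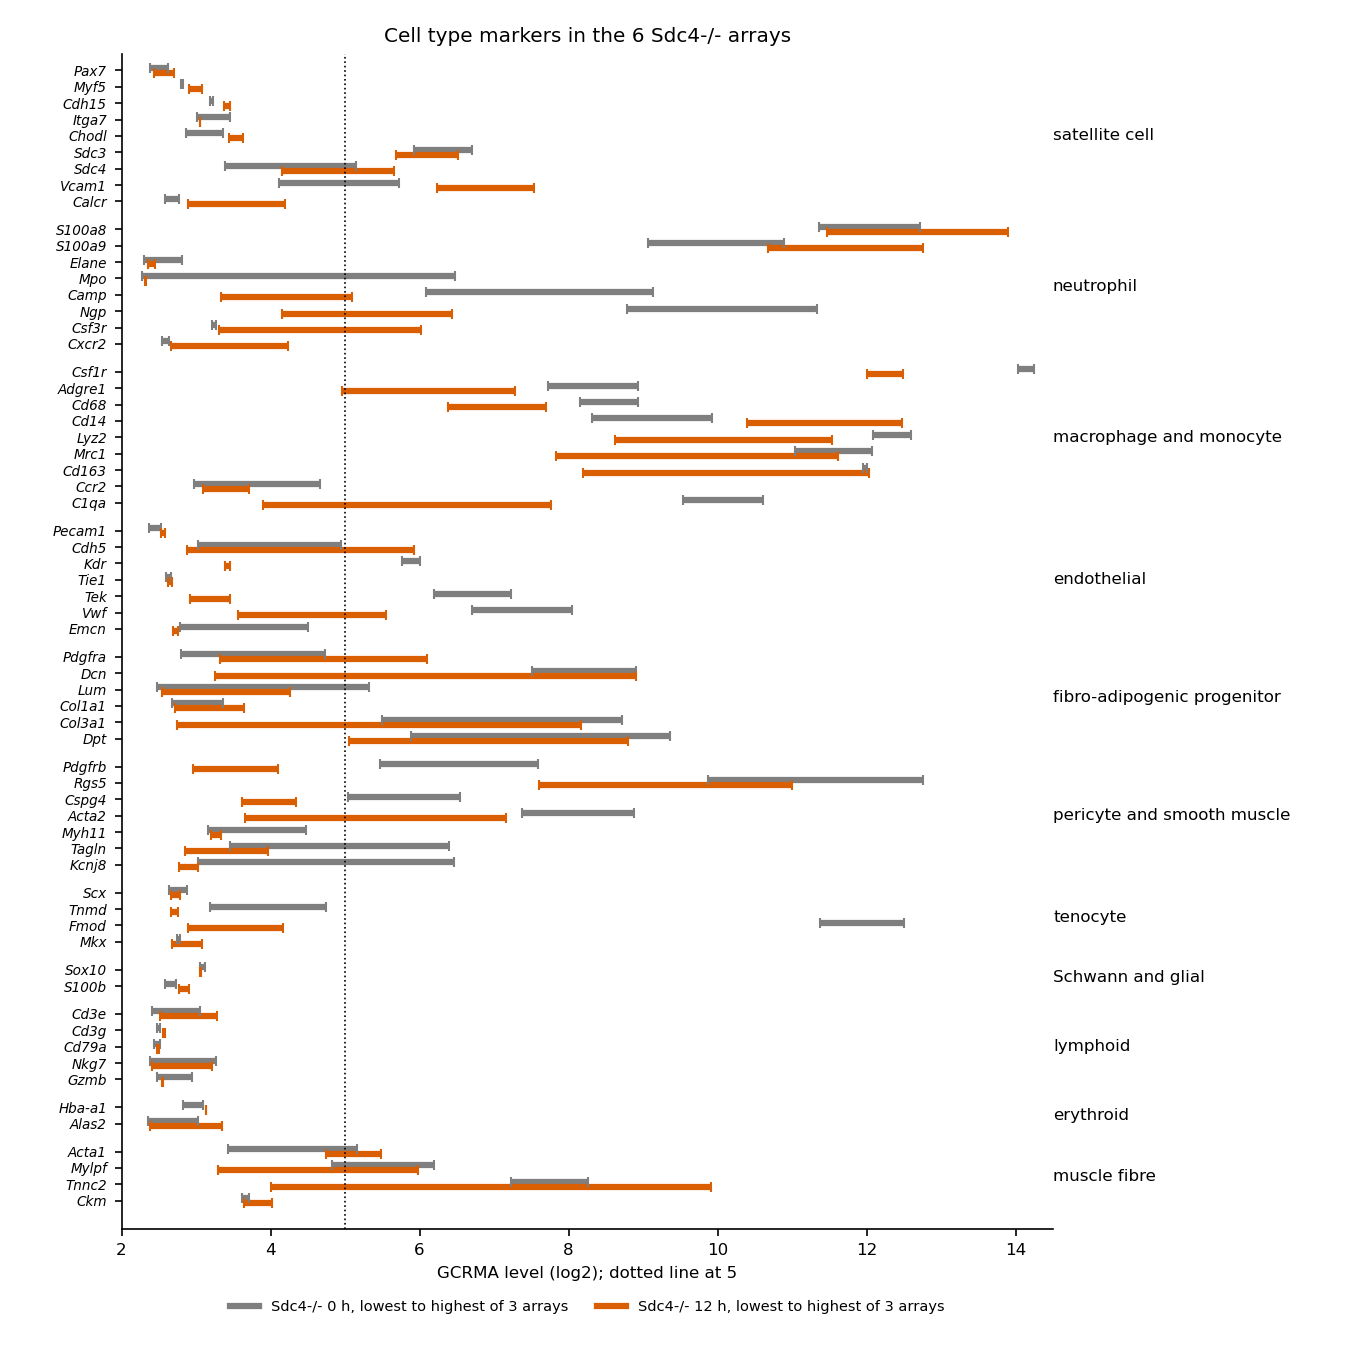
Levels of cell type markers in the 6 Sdc4-/- arrays. Each bar runs from the lowest to the highest of 3 arrays (grey, 0 h; orange, 12 h) on the GCRMA log2 axis, with a dotted line at 5. Pax7 and Myf5 lie under 4 in every array, and Csf1r lies above 12.

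The Sdc4 probe set of higher level did not separate the genotypes. It lay at 5.15, 4.07 and 3.39 at 0 h and at 4.15, 4.34 and 5.66 at 12 h (change 0.51 ± 0.68 SE, adjusted p = 0.717). It averaged 4.64 in wild type cells at 0 h. The other lay at 2.41 to 2.56 in these 6 arrays. Whether either probe set lies in the deleted part of the gene is not given in the sources used here.

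At 12 h after injury, more transcripts were called lower than higher, a balance that turned under the shift to a common 75th percentile. Of 45101 probe sets, 2890 were called (6.41%), of which 567 were higher (1.26%) and 2323 were lower (5.15%), and 3454 and 5460 had an unadjusted p under 0.05. With 1 probe set for each of 18194 genes, 1585 genes were called (8.71%), 270 of them higher (1.48%) and 1315 lower (7.23%). The falls were also larger, with a median change of -2.07 for probe sets called lower and 1.23 for those called higher. Of the called genes, 787 fell and 100 rose by more than 4-fold. For 381 probe sets every 0 h array was above 5 and every 12 h array under 4, whereas the reverse held for 21. Of the 270 genes called higher, 136 had a 12 h mean under 5. The median change was 0.04 over all genes and -0.63 over the 6279 genes with a mean level of at least 4, of which 14.8% were called lower and 2.26% higher. The 3 and 3 arrays did not overlap for 48.1% of all genes, so separation of the arrays alone is no mark of a called gene.

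**Figure D2:**
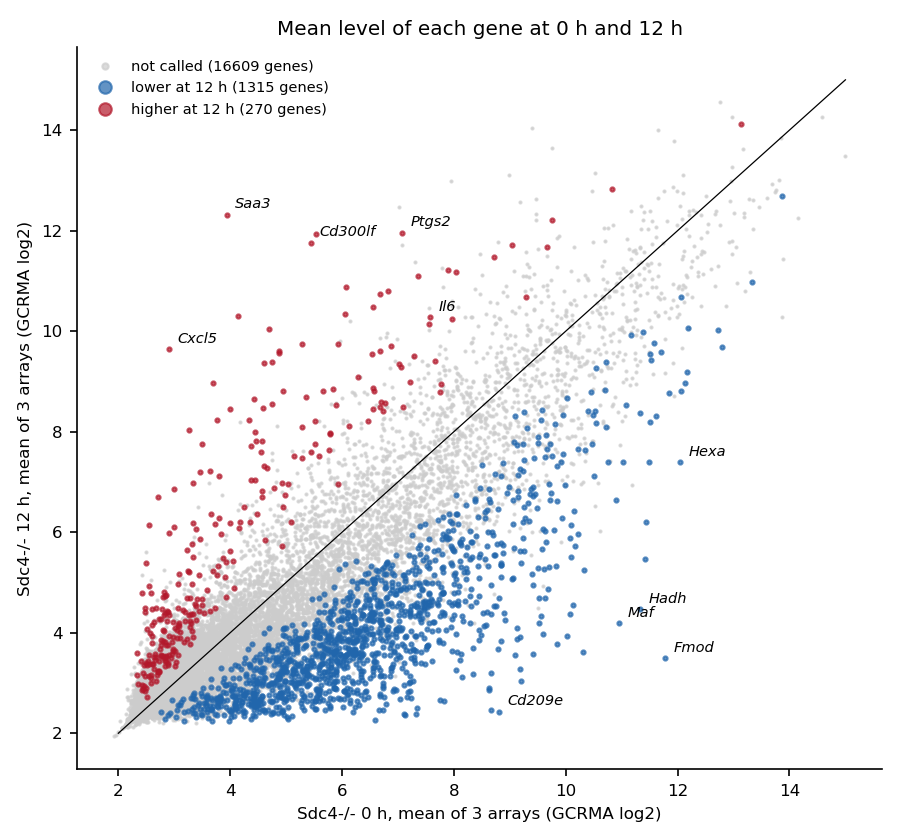
Mean level of each of 18194 genes in Sdc4-/- cells at 0 h (horizontal, GCRMA log2) and 12 h (vertical, GCRMA log2), each the mean of 3 arrays. Red points are the 270 genes called higher, blue points the 1315 called lower and grey points the rest; the line marks equal levels. Called falls reach across the range of 0 h levels, and many called rises start near the floor.

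The largest rise was that of Saa3, an acute-phase serum amyloid A made outside the liver by macrophages and stromal cells. Saa3 lay at 3.13, 4.33 and 4.35 at 0 h and at 12.94, 11.74 and 12.28 at 12 h, a 334-fold rise (change 8.39 ± 1.26 SE, adjusted p = 0.00187). Every 0 h array was close to the floor and every 12 h array among the strong signals of the chip. At 48 h its mean was 8.31. The 15 genes with the largest rises were chosen from this comparison among called genes whose arrays did not overlap and whose higher mean was at least 6, so their size is a description of them.

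Cxcl5, a chemokine that draws neutrophils, lay at 3.24, 2.66 and 2.80 and then at 10.04, 10.63 and 8.24, a 107-fold rise (change 6.74 ± 0.82 SE, adjusted p = 0.000456). Ppbp, another CXC chemokine precursor, rose 27.1-fold from 3.09 to 3.40 at 0 h to 6.64 to 9.35 at 12 h (adjusted p = 0.0075). Prg4, which encodes the joint lubricant lubricin, went from 5.20, 5.48 and 5.91 to 12.65, 12.12 and 11.01, an 84.2-fold rise (adjusted p = 0.0169). Both chemokines started at the floor, and Prg4 did not. The call of Prg4 was lost without 0 h replicate 1, 0 h replicate 2 or 12 h replicate 1 (adjusted p = 0.0653 without the last).

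Several of the other large rises were of genes known in myeloid cells. Cd300lf, an inhibitory immunoglobulin-like receptor, lay at 6.51, 5.32 and 4.53 and then at 12.42, 11.50 and 11.38 (79.6-fold, adjusted p = 0.000968). Serpinb2, the plasminogen activator inhibitor PAI-2, lay at 3.51, 5.29 and 3.61 and then at 11.02, 10.03 and 9.87 (71.9-fold, adjusted p = 0.00185). Gpr84, a receptor for medium-chain fatty acids, lay at 5.55, 4.99 and 3.56 and then at 11.58, 9.64 and 8.91 (40.5-fold, adjusted p = 0.00326). In each of these 3 genes the lowest 12 h array exceeded the highest 0 h array by more than 3 log2 units. Olr1, the receptor for oxidized low-density lipoprotein, rose 27.1-fold (adjusted p = 0.000266) and Arg2, the mitochondrial arginase, 25.0-fold (adjusted p = 0.000683). Upp1, a uridine phosphorylase, rose 22.2-fold with a wide 12 h spread of 6.02 to 9.89 (adjusted p = 0.0117). Abtb2, whose product has ankyrin repeats and a BTB domain, rose 27.9-fold from 5.65 to 6.63 at 0 h to 10.71 to 11.17 at 12 h (adjusted p = 0.000144).

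**Figure D3:**
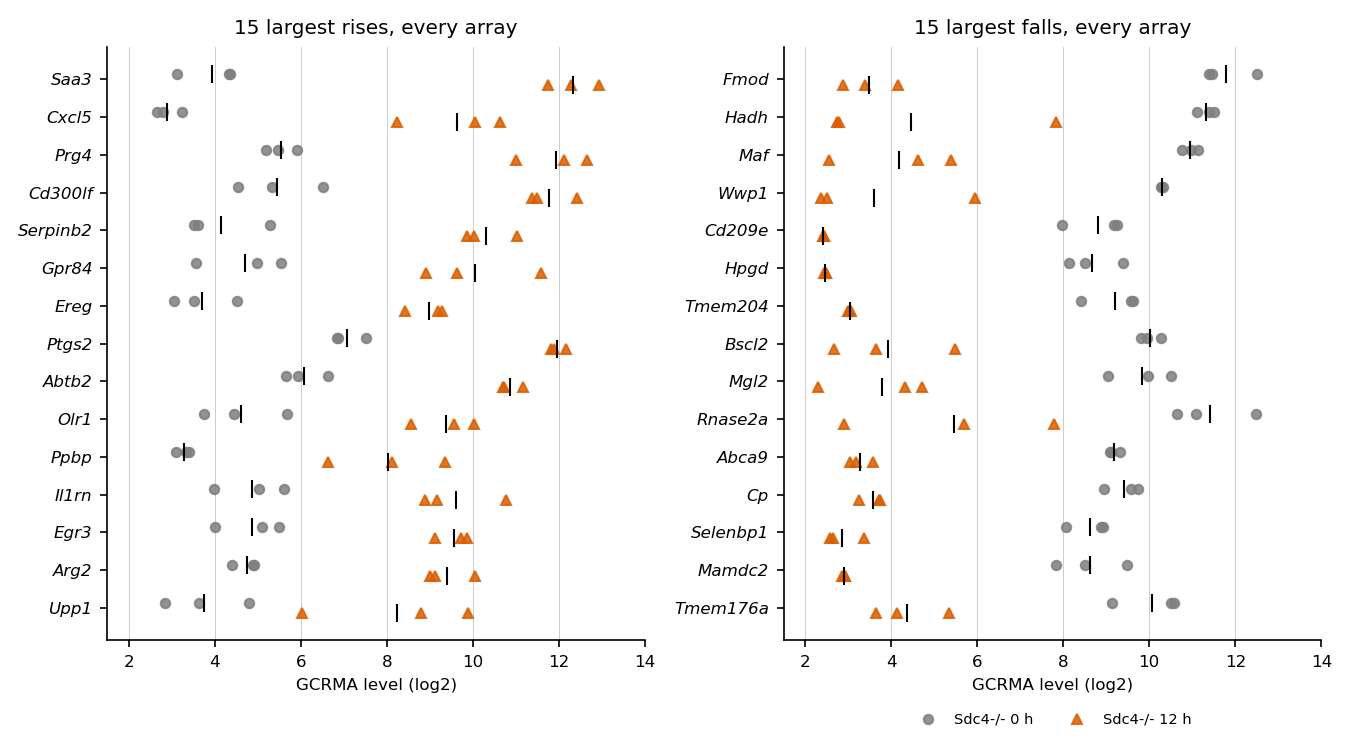
GCRMA log2 level of the 15 genes with the largest rises (left) and the 15 with the largest falls (right) in each Sdc4-/- array. Grey circles are the 3 arrays at 0 h, orange triangles the 3 at 12 h, and black ticks the group means. No circle and triangle of a gene overlap, as the choice of genes required.

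Prostaglandin genes moved in both directions. Ptgs2, the inducible cyclooxygenase that starts prostaglandin synthesis, lay at 7.52, 6.87 and 6.83 and then at 11.82, 12.17 and 11.89, a 29.6-fold rise (change 4.89 ± 0.68 SE, adjusted p = 0.0011). Hpgd, the dehydrogenase that inactivates prostaglandins, lay at 8.13, 9.39 and 8.5 and then at 2.45, 2.48 and 2.49, a 73.5-fold fall (change -6.20 ± 0.83 SE, adjusted p = 0.000878). The 12 h arrays of Hpgd were all at the floor. Ptger4, a receptor for prostaglandin E2, fell 6.73-fold (adjusted p = 0.00664). The list of 14 prostaglandin genes held 1 called higher and 2 lower, against 1.48% and 7.23% of all genes. At 48 h Ptgs2 averaged 11.04 and Hpgd 2.83, both near their 12 h levels.

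To show the sequence next to the start of genes that moved together, the RefSeq promoters (GRCm38.p6, 250 bases before the start to 50 after) of Saa3, Ptgs2 and Olr1 are given beside that of Fmod, the gene with the largest fall. Capitals mark matches to the C/EBP motif TTGCNNAA or the AP-1 motif TGANTCA on either strand.
Saa3 (chr7:46715627-46715926, minus strand): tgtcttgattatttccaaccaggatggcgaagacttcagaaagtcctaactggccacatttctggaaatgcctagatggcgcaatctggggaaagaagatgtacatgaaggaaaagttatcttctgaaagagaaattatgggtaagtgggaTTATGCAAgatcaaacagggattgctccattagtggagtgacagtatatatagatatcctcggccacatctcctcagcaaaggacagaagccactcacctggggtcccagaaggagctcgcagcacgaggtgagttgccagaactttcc
Ptgs2 (chr1:150099781-150100080, plus strand): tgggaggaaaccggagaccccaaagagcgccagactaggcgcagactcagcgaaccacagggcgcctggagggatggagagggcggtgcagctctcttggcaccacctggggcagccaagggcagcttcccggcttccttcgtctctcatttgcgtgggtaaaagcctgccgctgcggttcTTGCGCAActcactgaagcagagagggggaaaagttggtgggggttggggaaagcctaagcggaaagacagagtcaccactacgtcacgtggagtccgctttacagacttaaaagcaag
Olr1 (chr6:129507116-129507415, minus strand): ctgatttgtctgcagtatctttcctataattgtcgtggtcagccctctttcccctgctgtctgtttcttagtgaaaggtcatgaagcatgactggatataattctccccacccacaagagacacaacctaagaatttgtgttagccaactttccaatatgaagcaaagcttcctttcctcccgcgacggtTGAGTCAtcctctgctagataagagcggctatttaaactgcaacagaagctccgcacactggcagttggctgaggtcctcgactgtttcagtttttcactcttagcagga
Fmod (chr1:134037004-134037303, plus strand): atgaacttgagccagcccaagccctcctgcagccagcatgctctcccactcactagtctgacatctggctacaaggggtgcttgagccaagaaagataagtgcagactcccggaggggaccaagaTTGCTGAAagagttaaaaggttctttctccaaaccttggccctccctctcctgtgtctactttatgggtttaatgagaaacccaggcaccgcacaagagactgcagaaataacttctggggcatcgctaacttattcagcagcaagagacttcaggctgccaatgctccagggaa
The table held 10 of the 15 genes with the largest rises, 7 of them with 1 start, and 11 of the 15 with the largest falls, 8 of them with 1 start. The C/EBP motif was in 2 of the 7 and in 3 of the 8, against 10.8% of all 32851 promoters in the table. The AP-1 motif was in 2 of the 7 (Olr1 and Ppbp) and 0 of the 8, against 7.81%. The NF-kappaB consensus was in 0 of the 7 and 0 of the 8, against 8.46%, and these letters were searched only in this window. The motifs do not overlap in the sequences shown.

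Genes of the IL-1, TNF and NF-kappaB list, which holds cytokines of early inflammation with their receptors, inhibitors and transcriptional targets, were among the rises. Of 24 members measured, 7 were called higher and 0 lower, against 1.48% and 7.23% of all genes tested. Their median change was 1.89, against 0.04 over all genes, and 23 of the 24 changes were above 0. Il1rn, the natural antagonist of the IL-1 receptor, lay at 5.6, 5.03 and 3.99 and then at 10.78, 9.17 and 8.89 (26.7-fold, adjusted p = 0.00104). Csf1, the macrophage growth factor, lay at 3.45, 3.52 and 3.51 and then at 8.88, 7.98 and 6.40 (19.2-fold, adjusted p = 0.000401). Tnfrsf1b, a TNF receptor, rose 10.1-fold from 5.02 to 5.74 to 8.08 to 9.75 (adjusted p = 0.00995). The 0 h arrays of Csf1 were at the floor and tightly grouped, while its 12 h arrays spread over more than 2 log2 units. The other called members were Il1a (change 4.29), the decoy receptor Il1r2 (3.81), and the NF-kappaB subunit Nfkb2 (1.87) with the inhibitor Nfkbia (0.99).

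Some of the best known members of that list had large changes that did not pass the test. Il1b lay at 9.67, 8.64 and 8.64 and then at 13.82, 13.51 and 12.01, with no overlap and a change of 4.13 (adjusted p = 0.192). Tnf lay at 6.47, 6.08 and 5.11 and then at 9.81, 8.11 and 7.79 (adjusted p = 0.0588). Tnfaip2 had a change of 4.66 with no overlap (adjusted p = 0.108). These 3 genes were named after their values were seen. Without the wild type 12 h arrays, an alternative added after seeing the data, adjusted p was 0.00323 for Il1b, 0.0126 for Tnf and 0.00166 for Tnfaip2, and 13 of the 24 members were called higher. Over all genes that fit called 452 higher (2.48%) and 1403 lower (7.71%). Leaving out 1 array at a time gave as few as 3 called members, without 0 h replicate 3.

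Chemokine genes were called in both directions. Of 26 CC and CXC chemokines measured, 2 were called higher (Cxcl5 and Ppbp) and 3 lower. These shares, 7.69% and 11.5%, stand against 1.48% and 7.23% of all genes. At a mean of at least 4 the shares of all genes were 2.26% and 14.8%. Cxcl16, which is membrane-bound and a ligand for activated T cells, went from 7.70, 7.01 and 5.80 to 4.20, 5.28 and 4.21, a 4.82-fold fall (adjusted p = 0.00824). Cxcl12, which retains stem cells in their niche, fell from 6.93 to 8.44 at 0 h to 3.50 to 6.06 at 12 h (change -2.73, adjusted p = 0.0269), and the eosinophil chemokine Ccl24 fell by 3.70 (adjusted p = 0.0152). The neutrophil chemokines Cxcl1 and Cxcl2, named after their values were seen, were already high at 0 h (12.16 to 13.17 and 10.76 to 12.22) and lay at 14.49 to 14.60 and 13.76 to 14.20 at 12 h, apart but not called (adjusted p = 0.291 and 0.0792). Without the wild type 12 h arrays 6 members were called higher and 3 lower.

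Growth factors and their regulators were among the rises. Ereg, the EGF family ligand epiregulin, lay at 4.51, 3.06 and 3.52 and then at 8.42, 9.20 and 9.29 (38.6-fold, adjusted p = 0.000163). Inhba, the subunit of activin A, lay at 5.20, 3.90 and 4.18 and then at 8.37, 9.31 and 8.27 (18.7-fold, adjusted p = 0.000855). Id2, an inhibitor of basic helix-loop-helix factors, lay at 9.04, 9.46 and 8.59 and then at 12.39, 11.72 and 11 (6.40-fold, adjusted p = 0.00117). Ereg and Inhba thus rose from low levels and Id2 from a level already well above the floor. Fst, the activin antagonist follistatin, rose with its target (change 3.05, adjusted p = 0.00628). In the TGF-beta and BMP list of 32 genes, 3 were called higher and 2 lower, against 1.48% and 7.23% of all genes. Those called lower were the co-receptor Tgfbr3 (4.75-fold, adjusted p = 0.000107) and Tgfb1 (change -0.95, adjusted p = 0.017). The call of Tgfbr3 was lost with all 18 arrays in the fit (adjusted p = 0.101). Of 12 EGF family genes 2 were called higher and 0 lower, against the same shares of all genes. The second was Nrg2, a neuregulin, which went from 2.50 to 2.70 at 0 h to 2.92 to 3.70 at 12 h. It stayed under 4 in all 6 arrays. The call of Nrg2 was lost without any 1 of the 0 h arrays or without 12 h replicate 1 or 3 (adjusted p up to 0.141).

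Il6, a cytokine that satellite cells, macrophages and stromal cells release after injury, lay at 8.31, 7.88 and 6.53 and then at 10.34, 10.19 and 10.31 (6.53-fold, adjusted p = 0.01). Its 12 h arrays agreed within 0.2 log2 units. The call of Il6 was lost with all 18 arrays in the fit and with the 6 arrays alone (adjusted p up to 0.244). Stat3, the transcription factor that carries the IL-6 signal, went the other way, from 9.23, 8.94 and 9.04 to 6.15, 4.47 and 6.45 (10.4-fold lower, adjusted p = 0.00204). Clcf1, another cytokine of the family, rose 4.24-fold (adjusted p = 0.0207). Thus 2 of 14 members of the IL-6 list were called higher and 1 lower, against 1.48% and 7.23% of all genes. The call of Clcf1 was lost without 0 h replicate 1 or 2 or 12 h replicate 1 or 2 (adjusted p up to 0.0672).

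Among 25 immediate early genes, which respond first to stimulation, 4 were called higher and 1 lower, against 1.48% and 7.23% of all genes. Egr3 lay at 5.49, 5.10 and 4.01 and then at 9.87, 9.72 and 9.11 (26.0-fold, adjusted p = 0.00021). Ier3 rose 2.60-fold (adjusted p = 0.0099), Fosl1 by 2.36 on the log2 scale (adjusted p = 0.0144) and Nr4a3 by 2.30 (adjusted p = 0.046). Jund, from 10.25, 9.73 and 9.87 to 8.05, 7.88 and 9.05, fell 3.08-fold (adjusted p = 0.0123, and 0.0539 without 12 h replicate 1). Fos, named after its values were seen, was at 12.07 to 12.21 at 0 h and 10.44 to 12.10 at 12 h (adjusted p = 0.219). The high Fos level in the uninjured arrays is a value of cells after collagenase and sorting.

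Of 21 neutrophil transcripts measured, 3 were called higher and 3 lower, against 1.48% and 7.23% of all genes. With the 6 arrays alone 1 was called higher and 0 lower. Those that fell encode granule proteins, while the granule genes Elane and Prtn3 were under 4 in all 6 arrays. Ngp lay at 8.78, 9 and 11.33 and then at 6.44, 5.32 and 4.16 (21.0-fold, adjusted p = 0.0016), and Ltf, lactoferrin, at 6.45, 6.55 and 8.95 and then at 3.79, 3.38 and 3.02 (15.1-fold, adjusted p = 0.000695). Camp, cathelicidin, fell by 3.56 (adjusted p = 0.00721). In all 3, 0 h replicate 3 was the highest array, as it was for the granule gene Mpo (2.36, 2.28 and 6.48 at 0 h). Those that rose were Trem1, an amplifying receptor (5.01, 4.23 and 4.54 to 9.57, 8.59 and 7.25, 14.7-fold, adjusted p = 0.00414), Hdc, the histamine-forming enzyme (change 4.07, adjusted p = 0.0241), and Il1r2. The calgranulin S100a8 was at 11.36 to 12.71 and 11.47 to 13.89, which overlap (adjusted p = 0.771).

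Of 29 macrophage and monocyte transcripts measured, 7 were called lower and 0 higher, against 7.23% and 1.48% of all genes and 14.8% and 2.26% of those with a mean of at least 4. Their median change was -1.60, and the count called lower was 4 after quantile normalization. Maf, a transcription factor of resident macrophages, lay at 10.76, 11.13 and 10.97 and then at 4.62, 5.40 and 2.56 (109-fold, adjusted p = 0.000785). Folr2, a folate receptor of resident macrophages, lay at 9.05, 9.33 and 8.98 and then at 2.83, 5.63 and 3.18 (37.8-fold, adjusted p = 0.00974), and Ms4a7 fell 17.9-fold (adjusted p = 0.00547). The other called members were C1qa, C1qc, Aif1 and Cd74. Among the 15 largest falls were also Cd209e, a lectin of the DC-SIGN family (9.24, 9.18 and 7.98 to 2.42, 2.43 and 2.43, 83.0-fold, adjusted p = 2.76e-05), and Mgl2, a galactose-type lectin of macrophages and dendritic cells (10.51, 9.97 and 9.04 to 4.33, 4.72 and 2.30, 66.5-fold, adjusted p = 0.000595). Cd209e was at the floor in all 12 h arrays. Not every marker lay lower at 12 h, since Cd14, the lipopolysaccharide co-receptor, lay at 8.31 to 9.92 and then at 10.40 to 12.47 (change 2.29, adjusted p = 0.386). Mrc1 and Cd163, scavenger receptors of resident macrophages, lay at 11.04 to 12.07 and 11.95 to 12.01 at 0 h and at 7.83 to 11.61 and 8.19 to 12.03 at 12 h, where 12 h replicate 1 was the lowest in both (adjusted p = 0.503 and 0.483).

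MHC class II genes, which present antigen on macrophages, dendritic cells and B cells, held falls in the same arrays. Of 12 measured, 4 were called lower and 0 higher, with a median change of -2.04. Of all genes 7.23% were called lower and 1.48% higher, and of those with a mean of at least 4 14.8% and 2.26%. H2-DMa, which loads peptide, lay at 9.86, 9.62 and 8.08 and then at 3.45, 4.54 and 3.75 (38.7-fold, adjusted p = 0.00192). H2-Eb1 fell 13.2-fold (adjusted p = 0.00141) and H2-Ob 5.29-fold (adjusted p = 0.000292), and Cd74, the invariant chain, fell by 2.39 on the log2 scale (adjusted p = 0.0304). Of 13 complement components 3 were called lower and 0 higher, against the same shares of all genes. C2 lay at 7.67, 7.89 and 6.08 and then at 3.65, 3.62 and 3.63 (12.0-fold, adjusted p = 0.000345), C1qc fell 25.6-fold (adjusted p = 0.01) and C1qa 19.1-fold (adjusted p = 0.035). The summed level of the macrophage markers, in which Csf1r weighs most, was also lower at 12 h. Its part in the falls of these lists was not tested. The call of C1qa was lost without any of the 3 arrays at 0 h, 12 h replicate 1, 12 h replicate 3 or 48 h replicate 3 (adjusted p up to 0.135).

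The largest fall was that of Fmod, fibromodulin, a small leucine-rich proteoglycan of tendon and other dense connective tissue. Fmod lay at 11.38, 12.50 and 11.46 and then at 4.17, 2.89 and 3.40, 314-fold lower (change -8.30 ± 0.51 SE, adjusted p = 4.43e-06), and it averaged 2.73 at 48 h. The other 5 Fmod probe sets also lay lower at 12 h, 4 of them called (changes of -4.21 to -5.15) and 1 not (-2.01, adjusted p = 0.214). The probe set used and the 4 called ones carry the suffix by which the manufacturer marks probes that can also bind other transcripts, and the 1 that was not called (4.27, 6.42 and 3.67 to 2.79, 2.76 and 2.77) does not, so the size of the fall differs between probe sets. Chad and Comp, cartilage and tendon matrix proteins, fell 3.98-fold and 4.20-fold (adjusted p = 0.00369 and 0.0398). The call of Comp was lost in 12 of the 17 fits that left out 1 array (adjusted p up to 0.145). Fmod, Chad and Comp are the 3 called members, all lower, of 8 tenocyte transcripts, against 7.23% of all genes. Scx, the defining factor of tenocytes, was at 2.64 to 2.88 in these arrays. Timp4, a metalloproteinase inhibitor, fell 46.2-fold from 7.98 to 9.68 at 0 h to 3.25 to 3.99 at 12 h (adjusted p = 0.00334), and Sulf2, which trims heparan sulfate, 47.9-fold from 9.74 to 10.47 to 3.34 to 5.77 (adjusted p = 0.00503).

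Of 17 provisional matrix genes 2 were called higher and 1 lower, and of 24 matrix proteases and inhibitors 2 and 2. Of all genes 1.48% were called higher and 7.23% lower. Thbs1, thrombospondin-1 of the provisional matrix, lay at 4.02, 4.34 and 4.76 and then at 7.37, 8.48 and 7.29 (10.1-fold, adjusted p = 0.00126). Cd44, the hyaluronan receptor, lay at 6.83, 6.45 and 5.58 and then at 9.69, 9.17 and 8.41 (6.97-fold, adjusted p = 0.0069). Adam8, a metalloproteinase of leukocytes, rose 4.77-fold (adjusted p = 0.0115) and Plaur, the urokinase receptor, by 2.05 on the log2 scale (adjusted p = 0.0239). Vtn, vitronectin, fell 4.31-fold to the floor, at 2.74 to 2.75 in all 12 h arrays (adjusted p = 1.22e-06). The call of Vtn was lost with all 18 arrays in the fit (adjusted p = 0.176). Of 23 collagen genes 1 was called higher and 1 lower, and of 22 integrin genes 0 were called higher and 2 lower. The same shares of all genes apply to them.

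Of 22 endothelial transcripts 4 were called lower (18.2%) and 0 higher, against 7.23% and 1.48% of all genes. Of genes with a mean of at least 4, as 15 of the 22 had, 14.8% were called lower and 2.26% higher. Tek and Kdr, receptors for angiopoietins and for VEGF, lay at 6.58, 6.19 and 7.23 and at 5.93, 5.77 and 6.01, and then at 3.46, 2.92 and 3.01 and at 3.45, 3.39 and 3.46 (adjusted p = 0.0054 and 0.00622). Tmem204, a membrane protein of endothelium, was among the 15 largest falls (9.58, 8.41 and 9.62 to 3.03, 3.01 and 3.07, 71.7-fold, adjusted p = 0.00565). These 3 genes were under 4 at 12 h, whereas Mmrn2, the other called endothelial member, lay at 10, 8.71 and 10.24 and then at 4.54, 4.89 and 7.99. Pecam1 and Tie1, an adhesion molecule and a receptor of endothelium, were under 4 in all 6 arrays. Of 16 pericyte and smooth muscle transcripts 3 were called lower (18.8%) and 0 higher, against the same shares, among them Abcc9 (10.3-fold, adjusted p = 0.00301). With all 18 arrays in the fit 0 members of either list were called (adjusted p = 0.155 for Tek, 0.0893 for Kdr, 0.0688 for Tmem204 and 0.145 for Abcc9). The summed endothelial and pericyte markers were also lower at 12 h, and their part was not tested.

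Oxidative phosphorylation genes build the respiratory chain of mitochondria. Of 41 measured, 12 were called lower and 0 higher, against 14.8% and 2.26% of all genes with a mean of at least 4, and 37 of the 41 changes were below 0, with a median of -1.29 against -0.63 for all genes with a mean of at least 4. All 41 had a mean of at least 4. Ndufs8, a complex I subunit, lay at 11.64, 11.53 and 11.36 and then at 7.67, 9.08 and 7.84 (9.93-fold, adjusted p = 0.000317). Sdha, the catalytic subunit of complex II, lay at 9.52, 9.14 and 8.88 and then at 6.61, 6.40 and 3.85 (11.8-fold, adjusted p = 0.00366), and Ndufs3 fell 4.99-fold (adjusted p = 0.00503). Complexes I to V were all represented among the called members. Hadh, an enzyme of fatty acid oxidation in mitochondria, was the second largest fall (11.10, 11.38 and 11.50 to 2.75, 7.84 and 2.80, 116-fold, adjusted p = 0.00191), with 12 h replicate 2 far above the other 12 h arrays. The other 2 Hadh probe sets were lower in level and not called (changes of -1.29 and -0.37, adjusted p = 0.115 and 0.722). Without the wild type 12 h arrays 24 members were called lower, and after quantile normalization 6.

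Other housekeeping lists held fewer calls. The counts in this paragraph stand against 7.23% of all genes called lower and 1.48% higher. Of genes with a mean of at least 4, 14.8% were called lower and 2.26% higher. Of 30 cytosolic ribosomal protein genes 3 were called lower and 0 higher, with a median of -0.99, and without the wild type 12 h arrays 19 were called lower. Rps29 lay at 13.99, 13.96 and 13.67 and then at 12.35, 12.97 and 12.76 (2.27-fold, adjusted p = 0.000878). Of 25 lysosomal genes 5 were called lower and 1 higher, and after quantile normalization 0 were called lower. Hexa, a lysosomal hexosaminidase, lay at 11.95, 12.25 and 11.96 and then at 7.93, 9 and 5.27 (25.2-fold, adjusted p = 0.0139), whereas the proton pump subunit Atp6v0d1 rose 2.05-fold (adjusted p = 0.00713). Bnip3 and Pdk1, which hypoxia induces, fell 12.4-fold and 5.45-fold (adjusted p = 0.00178 and 0.0355), as 2 of 20 glycolysis and hypoxia genes with 0 called higher. The call of Pdk1 was lost without 0 h replicate 1 or 2, 12 h replicate 1 or 3 or 48 h replicate 3 (adjusted p up to 0.135). Of 22 interferon-stimulated genes 3 were called lower (13.6%) and 0 higher, against 7.23% and 1.48% of all genes. At a mean of at least 4, as 17 of the 22 had, the shares were 14.8% and 2.26%. After quantile normalization 0 members were called lower. In the insulin-like growth factor system, Igf1 lay at 8.77, 8.73 and 8.21 and then at 3.03, 4.57 and 4.88 (21.2-fold lower, adjusted p = 0.00354). Chac1, a glutathione-degrading enzyme of the amino acid stress response, rose 4.62-fold from 2.52 to 2.65 to 4.56 to 5.12 (adjusted p = 0.000122), 1 of 2 called among 23 members.

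The remaining large falls were of varied function. Wwp1, a ubiquitin ligase, went from 10.28, 10.29 and 10.32 to 2.51, 5.96 and 2.37 (103-fold, adjusted p = 0.000663), and Bscl2, seipin of lipid droplets, from 10.28, 9.82 and 9.95 to 3.66, 5.48 and 2.67 (67.7-fold, adjusted p = 8.9e-05). In both, 12 h replicate 2 was the highest of its group, as in Hadh and Folr2. A second Bscl2 probe set lay at 2.91 to 3.54 and 2.47 to 2.48 and was not called (adjusted p = 0.145), while 1 of the 2 others of Wwp1 was called lower. Abca9, a lipid transporter, Selenbp1, a selenium-binding protein, and Mamdc2, an extracellular matrix protein, lay at 7.84 to 9.49 at 0 h and at 2.58 to 3.58 at 12 h, with falls of 52.5-fold to 60.2-fold. Tmem176a, a membrane protein of myeloid cells, fell 51.7-fold (adjusted p = 0.000318). Cp, the ferroxidase ceruloplasmin, fell 57.5-fold (adjusted p = 0.0195) and Rnase2a, an eosinophil-associated ribonuclease, 61.8-fold (adjusted p = 0.0214). The call of Cp was lost without 0 h replicate 1 or 2 or 12 h replicate 1 or 3, and that of Rnase2a without 0 h replicate 1 or 2 or 12 h replicate 1 (adjusted p up to 0.0627 and 0.0874). Of the 7 other Cp probe sets 2 were called lower. Over the 30 largest changes, 16 genes had other probe sets, of which 32 of 36 had a change of the same sign and 18 were called in that direction.

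Myogenic genes gave little signal. The counts in this paragraph stand against 1.48% of all genes called higher and 7.23% lower. Myod1 lay at 3.05, 2.52 and 2.30 and then at 2.74, 2.36 and 2.34 (adjusted p = 0.663), with all 6 arrays near the floor. Of 26 satellite cell and quiescence genes 1 was called lower (Foxo3, 8.57, 8.48 and 8.31 to 6.88, 6.56 and 7.20, adjusted p = 0.00723) and 0 higher. The call of Foxo3 was lost after quantile normalization (adjusted p = 0.352). Of 17 genes of commitment and differentiation 1 was called lower (Mef2c, a factor also known in myeloid and endothelial cells, 7.34, 7.69 and 7.51 to 3.13, 2.95 and 5.15, adjusted p = 0.000656) and 0 higher. After the shift to a common 75th percentile Pax7 and Myf5 were called higher (adjusted p = 0.0399 and 0.0295), while their levels stayed at the floor. Mki67, a proliferation marker, lay at 7.36, 6.09 and 6.34 and then at 9.50, 7.22 and 8.86, which overlap (adjusted p = 0.112), and 0 of 19 mitosis genes were called. Of 32 splicing genes 1 was called higher, Hnrnpa2b1 (9.32, 9.90 and 10.05 to 12.32, 11.63 and 12.66, adjusted p = 0.00673), and 0 lower. Of 18 mRNA destabilizers 3 were called lower (Cnot7, Cnot6l and Dcp2) and 0 higher, and each call was lost in 3 to 5 of the 17 fits that left out 1 array (adjusted p up to 0.0937, 0.112 and 0.0824).

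In 9 of the 53 lists no member was called, among them 20 endoplasmic reticulum folding genes, 21 cytosolic chaperones, 20 ribosome biogenesis genes and 19 translation initiation factors. Of 26 genes of syndecan-4 signalling, focal adhesion and actin 0 were called, against 8.71% of all genes, and their changes ran from -1.17 to 1.29. Hspa5, the endoplasmic reticulum chaperone BiP, lay at 11.90 to 12.43 and 12.13 to 13.55 (adjusted p = 0.602), and Hspa8 at 14.55 to 14.63 and 14.14 to 14.42 (adjusted p = 0.32). Across the 53 lists 23 had a median change below 0.

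**Figure D4:**
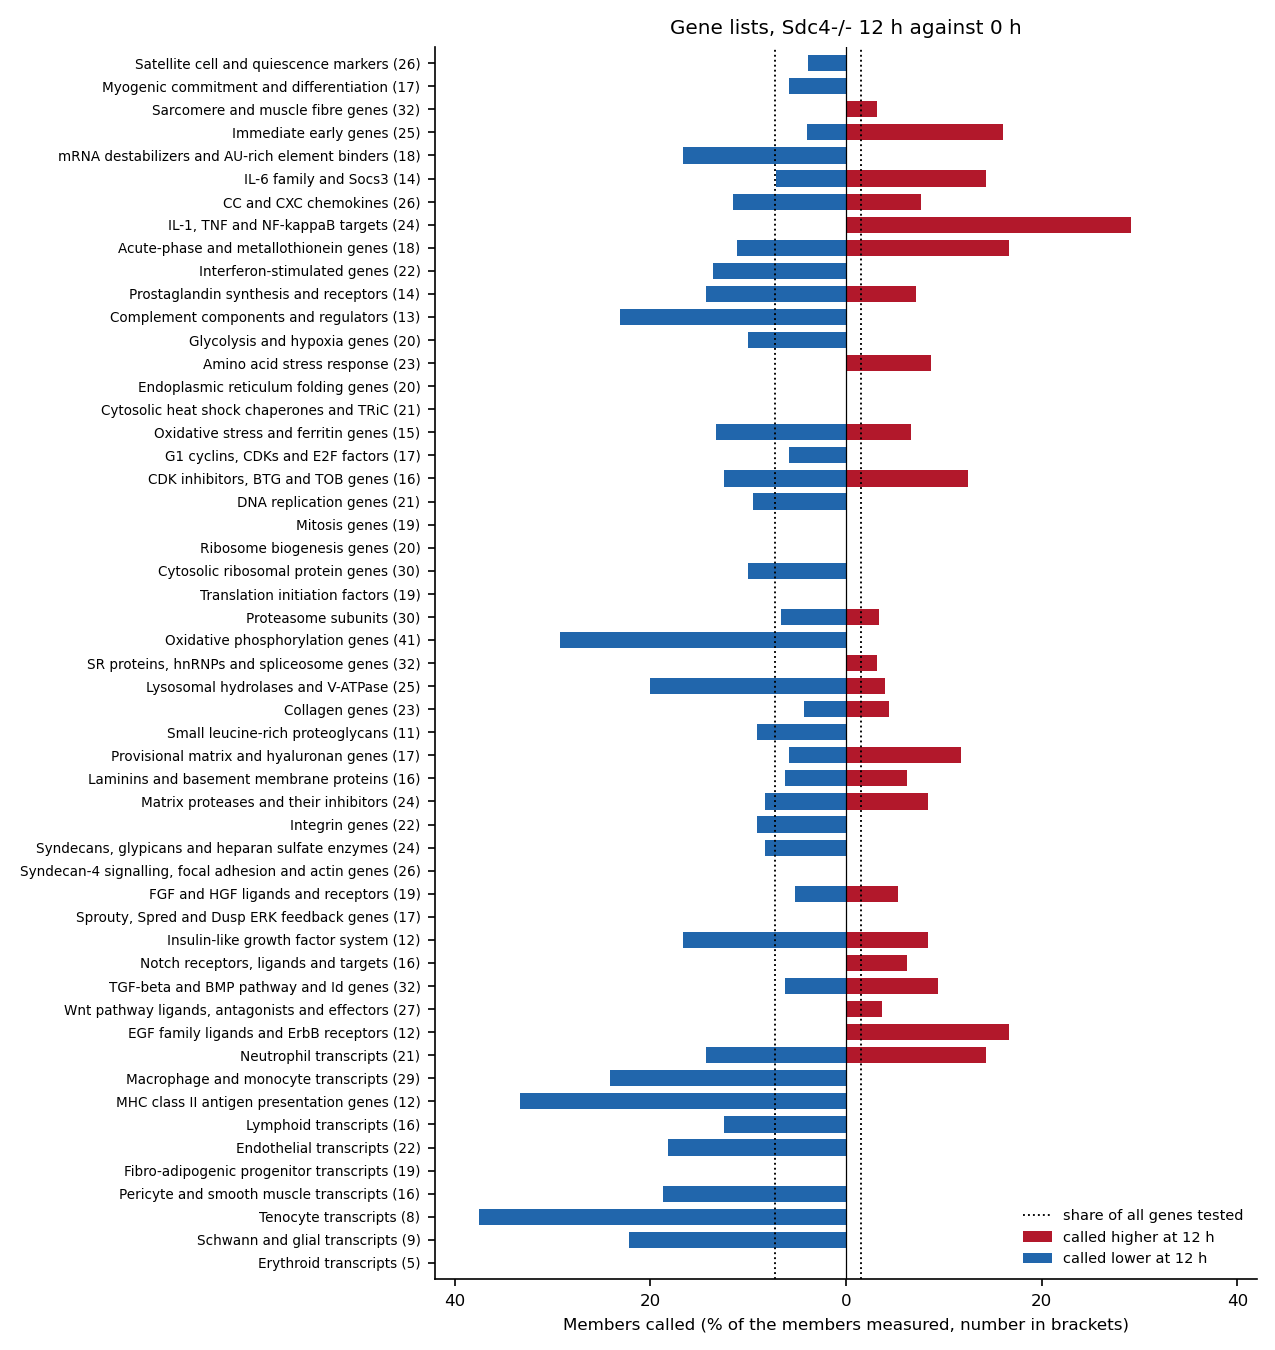
Share of the measured members of each gene list called higher (red, to the right) and lower (blue, to the left) in Sdc4-/- cells at 12 h against 0 h, in percent, with the number measured in brackets. Dotted lines mark the shares over all genes tested, 1.48% higher and 7.23% lower; the IL-1, TNF and NF-kappaB list reaches 29.2% higher with 0 lower.

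To see whether the same change occurred in wild type cells, the 12 h changes of the genotypes were compared by a contrast in the same fit. The difference between the changes was called for 5002 probe sets (11.1%), of which 1973 were more positive in Sdc4-/- cells, and for 2187 genes (12.0%). Among the 1585 genes called in Sdc4-/- cells it was called for 321 (20.3%), a share that their choice by the same Sdc4-/- change favours. The wild type 12 h arrays differed in quality from the Sdc4-/- arrays, with 2832 to 3982 probe sets above 5, hybridization controls at 13.5 to 14.3 and 1 array with Actb at 3.98, and the part of these differences was not tested beyond 1 alternative. With the hybridization controls as a covariate 280 probe sets were called for the genotype difference. With the 1 left-out wild type 0 h array included 592 were.

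The direction of the wild type call was counted for the genes called in Sdc4-/- cells. Of the 1315 genes called lower in Sdc4-/- cells, 912 (69.4%) were also called lower in wild type and 8 were called higher. Of the 270 genes called higher, 74 (27.4%) were called higher in wild type, 31 (11.5%) were called lower and 165 (61.1%) were not called. All 31 also differed between the genotypes by the contrast, which called changes of opposite sign make likely. Over all genes, wild type cells had 3564 called higher and 3793 called lower.

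Several of these genes moved in opposite directions in the genotypes. Il6 rose by 2.71 in Sdc4-/- cells and went from a mean of 10.32 to 3.54 in wild type cells (difference of the changes 9.49 ± 0.82 SE, adjusted p = 5.34e-05). Egr3 and Abtb2 rose by 4.70 and 4.80 and had wild type changes of -3.55 and -2.63 (adjusted p = 8.63e-05 and 0.000148 for the difference). For both genes this rests on 1 probe set, since the 2 others of Abtb2 (changes of 0.63 and 0.01) and the other of Egr3 (-0.40), all of low level, were called neither for the change nor for the difference. Id2, Csf1 and Hnrnpa2b1 differed in the same direction (adjusted p = 3.51e-05, 0.000686 and 0.00119). Ptgs2 and Serpinb2, which rose 29.6-fold and 71.9-fold in Sdc4-/- cells, had wild type changes of -0.32 and -0.53 that were not called. With the hybridization-control covariate the difference kept its direction in all 42 named genes that had it and its call in 8, among them Il6, Id2, Abtb2 and Hnrnpa2b1 but not Ptgs2 or Serpinb2 (adjusted p = 0.504 and 0.558).

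For other large changes the difference between the genotypes was not called. Fmod had a change of -8.30 in Sdc4-/- and -8.39 in wild type cells, and the difference between them was 0.10 ± 0.76 SE (adjusted p = 0.945). Hadh and Tmem176a had changes of -6.86 and -5.69 in Sdc4-/- and of -7.17 and -5.76 in wild type cells. Saa3 had changes of 8.39 and 4.57, both called, and their difference of 3.82 ± 1.90 SE was not (adjusted p = 0.219). Among the 15 largest rises 10 had a called genotype difference and among the 15 largest falls 3. Those 3 (Cd209e, Mgl2 and Selenbp1) fell further in Sdc4-/- cells. Because these genes were chosen by their Sdc4-/- change, which enters the difference, the choice favours such calls and their direction.

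**Figure D5:**
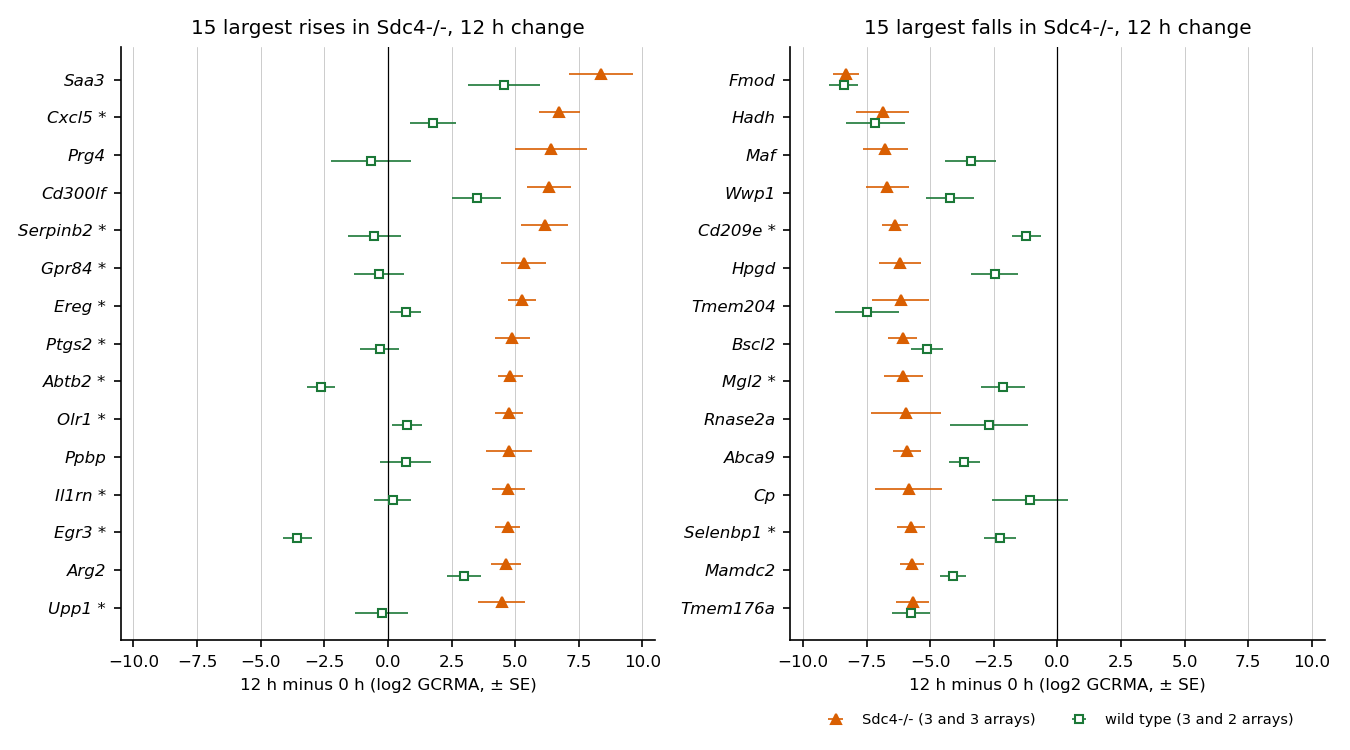
Change from 0 h to 12 h (GCRMA log2, ± SE) of the 15 genes with the largest rises and the 15 with the largest falls in Sdc4-/- cells, with the change of the same genes in wild type cells. Orange triangles are Sdc4-/- (3 and 3 arrays), green squares wild type (3 arrays at 12 h and 2 at 0 h), and an asterisk marks a called difference between them. The SE comes from the spread pooled over all 17 arrays of the fit. Most rises in Sdc4-/- cells have wild type values near or below 0, and the choice of genes by their Sdc4-/- change favours smaller wild type changes.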

How the data were processed

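Microarray values of Affymetrix mouse genome chips were taken as the authors deposited them, as log2 values after GCRMA normalization in Spotfire of signals read with GCOS. Versions are not given in the sources used here. No further normalization was applied. Of 18 arrays 17 entered 1 limma fit (limma 3.58.1, R 4.3.3) of 6 groups. The study's methods removed 1 wild type 0 h array, taken here to be replicate 3. Contrasts were moderated with eBayes and p-values adjusted by Benjamini-Hochberg over all 45101 probe sets. For each of 18194 genes, 1 probe set was kept, that of highest mean level among the 34958 with 1 symbol (932 had several and 9211 none). Symbols were updated through Entrez IDs to the RefSeq table of GRCm38.p6.

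Named in the text are 15 rises and 15 falls, the largest of the called genes that had no overlap and a higher mean of 6 or more, up to 3 called members of each list with the smallest adjusted p (or the member with the highest mean), and Sdc4, Sdc3, Pax7, Myf5 and Myod1. Further list members are named as examples chosen after their values were seen. The members and lists were chosen with earlier results of these data known. The 53 lists held 1125 genes, of which 1038 were matched. The number of arrays limits the precision.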

Additional observations from a re-analysis of the deposited data

Results flagged for a closer look

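For 42 of the named genes the change at 12 h differed between Sdc4-/- and wild type cells, by the contrast of the changes in limma at an adjusted p under 0.05. Most named genes were chosen by their Sdc4-/- change, which enters this contrast, so the choice favours such differences. Each value below is the Sdc4-/- change minus the wild type change on the log2 scale. The difference was 4 or more for Il6 9.49, Egr3 8.25, Abtb2 7.43, Id2 7.01, Serpinb2 6.70, Csf1 6.14, Gpr84 5.68, Ptgs2 5.21, Hnrnpa2b1 5.03, Cxcl5 4.97, Upp1 4.72, Ereg 4.57, Il1rn 4.545, Tnfrsf1b 4.38, Cd44 4.26, Inhba 4.23 and Olr1 4.01. It was between 2 and 4 for Ndufs8 3.735, Trem1 3.42, Thbs1 3.24, Atp6v0d1 3.11, Cat 3.03, Adam8 2.94, Cnot7 2.89, Chac1 2.49, Pax7 2.33, Ier3 2.24, Dmd 2.23 and Vtn 2.11. It was under 2 for Psmb1 1.745, Tgfbr3 1.515, Dll4 1.502, Myf5 1.25 and Myoz1 1.15. It was below 0 for Cd209e -5.15, Mgl2 -3.92, Selenbp1 -3.51, Pla2g2d -3.14, Cnp -3.10, Cd2 -2.74, Hs6st1 -1.02 and Wnt5a -0.64. For Pax7 and Myf5 the Sdc4-/- arrays were at the floor at both times, and the difference is that of the wild type fall from 4.87 to 2.60 and from 4.72 to 3.61. Myoz1, Wnt5a, Dmd and Hs6st1 were also under 4 in all 6 Sdc4-/- arrays, so their Sdc4-/- changes lie near the floor. With the hybridization controls as a covariate 8 of the 42 remained called (Abtb2, Mgl2, Il6, Hnrnpa2b1, Vtn, Dmd, Id2 and Pax7), and with the left-out wild type 0 h array included 20. None of the 42 turned direction under these alternatives.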

How the results depend on the processing

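The balance of calls, with more lower than higher, turned after the shift to a common 75th percentile and under no other alternative run, and none of the 123 named genes called in Sdc4-/- cells turned sign under any of them. Probe sets called higher numbered 567, and 352 with all 18 arrays, 312 with the 6 arrays alone, 334 when those with a mean under 4 were dropped, 1171 without moderation, 18071 after the shift to a common 75th percentile and 912 without the wild type 12 h arrays, the last chosen after seeing the data. Those called lower numbered 2323, and 1451 with the 6 arrays alone and 1293 after quantile normalization. The genotype difference, called for 5002, was called for 592 with all 18 arrays, 3194 with only the groups compared, 3309 after quantile normalization, 3297 after the 75th percentile shift, 280 with the hybridization-control covariate and 1515 when probe sets with a mean under 4 were dropped. Leaving out 1 array gave 308 (without Sdc4-/- 0 h replicate 2) to 910 (without Sdc4-/- 12 h replicate 3) called higher, 1550 (without Sdc4-/- 12 h replicate 1) to 2547 (without Sdc4-/- 0 h replicate 3) called lower, and 3098 (without wild type 0 h replicate 1) to 6946 (without wild type 12 h replicate 1) for the genotype difference. The causes were not tested. The share of calls that were higher was 19.6%, and 35.4% without moderation or after quantile normalization, 87.2% after the 75th percentile shift and 31.7% without Sdc4-/- 12 h replicate 3. The median change turned above 0 after quantile normalization for the DNA replication list (-0.60 to 0.05) and the proteasome list (-0.40 to 0.09).

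The main fit did not pair arrays by replicate number. Deviations of same-numbered Sdc4-/- arrays from their group means correlated at -0.0357, 0.0552 and 0.0008. With 3 arrays in each group these values cannot tell whether same-numbered arrays shared an animal or a batch. With the replicate number as a block 481 probe sets were called higher and 2153 lower, and 4154 for the genotype difference, and 115 of the 123 named genes kept their call. Of the 123, 87 kept it whichever array was left out, 69 with the 6 arrays alone and 87 after quantile normalization. Levels near the floor give no order between arrays.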
